A study of Rattus norvegicus with 11 samples.

Results

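Mitochondrial ribosome proteins were followed in the hippocampus of rats fed a ketogenic diet or a control diet, on oligonucleotide arrays with 15923 probe sets under Affymetrix names. The members were all probe sets whose only gene symbol in the platform annotation began with Mrpl (large subunit) or Mrps (small subunit). They numbered 85 probe sets of 74 genes, out of 10412 genes named by such single symbols. The large subunit had 58 of these probe sets, of 48 genes, and the small subunit 27, of 26 genes. All 85 were placed by their gene IDs in the RefSeq gene table of the rat assembly GRCr8.

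The samples were RNA of hippocampus on 5 arrays for a ketogenic diet, high in fat with little carbohydrate, and 6 arrays for the control diet. The diet is used against epileptic seizures, and the comparison asked which hippocampal transcripts differ with it. Strain, sex, age, and the length of feeding are not stated in the labels. It is also not stated that each array came from its own animal, so a p-value here reflects only the variation among these arrays, which may in part be technical.

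The mitochondrial ribosome is a separate ribosome inside the mitochondrion. It translates the few messenger RNAs encoded by mitochondrial DNA, all of which specify subunits of the respiratory chain and of ATP synthase. Its RNAs are made in the organelle, whereas its proteins are encoded in the nucleus, made in the cytosol and imported. The small subunit holds the messenger RNA and reads its codons, and the large subunit joins the amino acids. Around a core with bacterial counterparts, both subunits carry proteins that are particular to mitochondria. Neurons depend heavily on oxidative phosphorylation, and inherited defects in several of these proteins cause disease of the brain or heart in humans.

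The deposited intensities had medians of 79.9 to 87.9 on the ketogenic arrays and 89.2 to 94.2 on the control arrays, and were quantile normalised before the comparison. Pairs of ketogenic arrays correlated at 0.951 to 0.972 over all tested probe sets, pairs of control arrays at 0.959 to 0.974, and pairs across diets at 0.933 to 0.964. On the first principal component, ketogenic replicate 3 lay at -2.82, between the other ketogenic arrays at 18.6 to 25.7 and the control arrays at -17.3 to -10.6. Its title also ended differently from all others, and results that rest on it are given without it as well. The log2 ratio of 3 prime to 5 prime signal, a measure of RNA integrity and labelling, was higher on ketogenic arrays for Gapdh (0.13 to 0.34, against -0.068 to 0.15, exact two-sided permutation p = 0.00649) and for actin (0.75 to 0.99, against 0.49 to 0.75, exact permutation p = 0.00216, the smallest that 5 against 6 arrays allow). The hybridisation spike-ins, bacterial and phage transcripts added at fixed amounts, were also higher on ketogenic arrays (8.53 to 8.84 log2 signal, against 8.23 to 8.54, exact permutation p = 0.00649). These 3 tests and that of all spike-ins together (exact permutation p = 0.31) had adjusted p values of 0.00866 for each of the 3 and 0.31. The hybridisation spike-ins were measured after quantile normalisation. All spike-ins together and the 3 prime to 5 prime ratios were measured on the deposited values in log2. The spike-in results are thus on different scales and cannot be compared directly. The part of the normalisation in the difference of the hybridisation spike-ins was not tested. The dates of labelling and scanning were not given, so diet and any such batch cannot be told apart.

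Of the 85 members, 82 passed the filter on low signal and were tested with limma. The filter left out Mrpl14, 1 of 3 probe sets of Mrpl37 (1386606_at) and 1 of 2 of Mrps26 (1375166_at). Mrpl14, the counterpart of bacterial uL14, had log2 signals of 4.94, 5.42, 3.66, 5.5 and 4.49 on ketogenic replicates 1 to 5, and from 2.65 to 3.39 with a median of 3.20 on the control diet. These dim values did not overlap, and in the fit without the filter they differed by 1.72 ± 0.32 (SE; limma, adjusted p = 0.014). In that fit the probe sets of Mrpl37 and Mrps26 differed by -0.25 ± 0.18 and -0.78 ± 0.39 and were not called (limma, adjusted p = 0.39 and 0.21). Mrps27, a member built of RNA-binding pentatricopeptide repeats, passed only through its ketogenic values, with a mean log2 signal of 5.47 on the ketogenic diet and 4.95 on the control diet, against a filter level of 5.17.

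Members of both subunits were higher and lower on the ketogenic diet. At an adjusted p under 0.05 (limma, Benjamini-Hochberg over all 11899 tested probe sets), 16 of 82 members were called, 11 higher and 5 lower. That is 19.5% of the members, against 16.5% of all tested probe sets. Higher calls made up 13.4% of the members, against 8.62% of all tested probe sets, and lower calls 6.10%, against 7.87%. The shares called stood near those of all probe sets. The signs were less even, since 59 of 82 members (72.0%) had a positive fold change, against 49.2% of all tested probe sets. The median log2 fold change was 0.12 over the members and -0.0041 over all tested probe sets, and the median size regardless of sign was 0.17 in both. An unadjusted p under 0.05 (limma) was reached by 34 of 82 members, and by 3967 of all 11899 tested probe sets. The numbers of calls depended on single arrays: 5 members were higher and 3 lower without ketogenic replicate 2, 6 and 2 without ketogenic replicate 4, and 17 higher without ketogenic replicate 3. The share of all tested probe sets called moved too, to 7.07%, 6.70% and 26.6% in these 3 fits. Of the members, 9.88%, 9.88% and 29.6% were called in them. Lower calls among members numbered 2 without control replicate 3 or 4, and 3 without control replicate 2 or 5 or ketogenic replicate 1. With both 3 prime to 5 prime ratios in the model limma called 0 members, while 5 had an unadjusted p under 0.05, and over all probe sets 0 were higher and 6 lower. The part of RNA integrity in the calls was not tested beyond this fit.

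**Figure D1:**
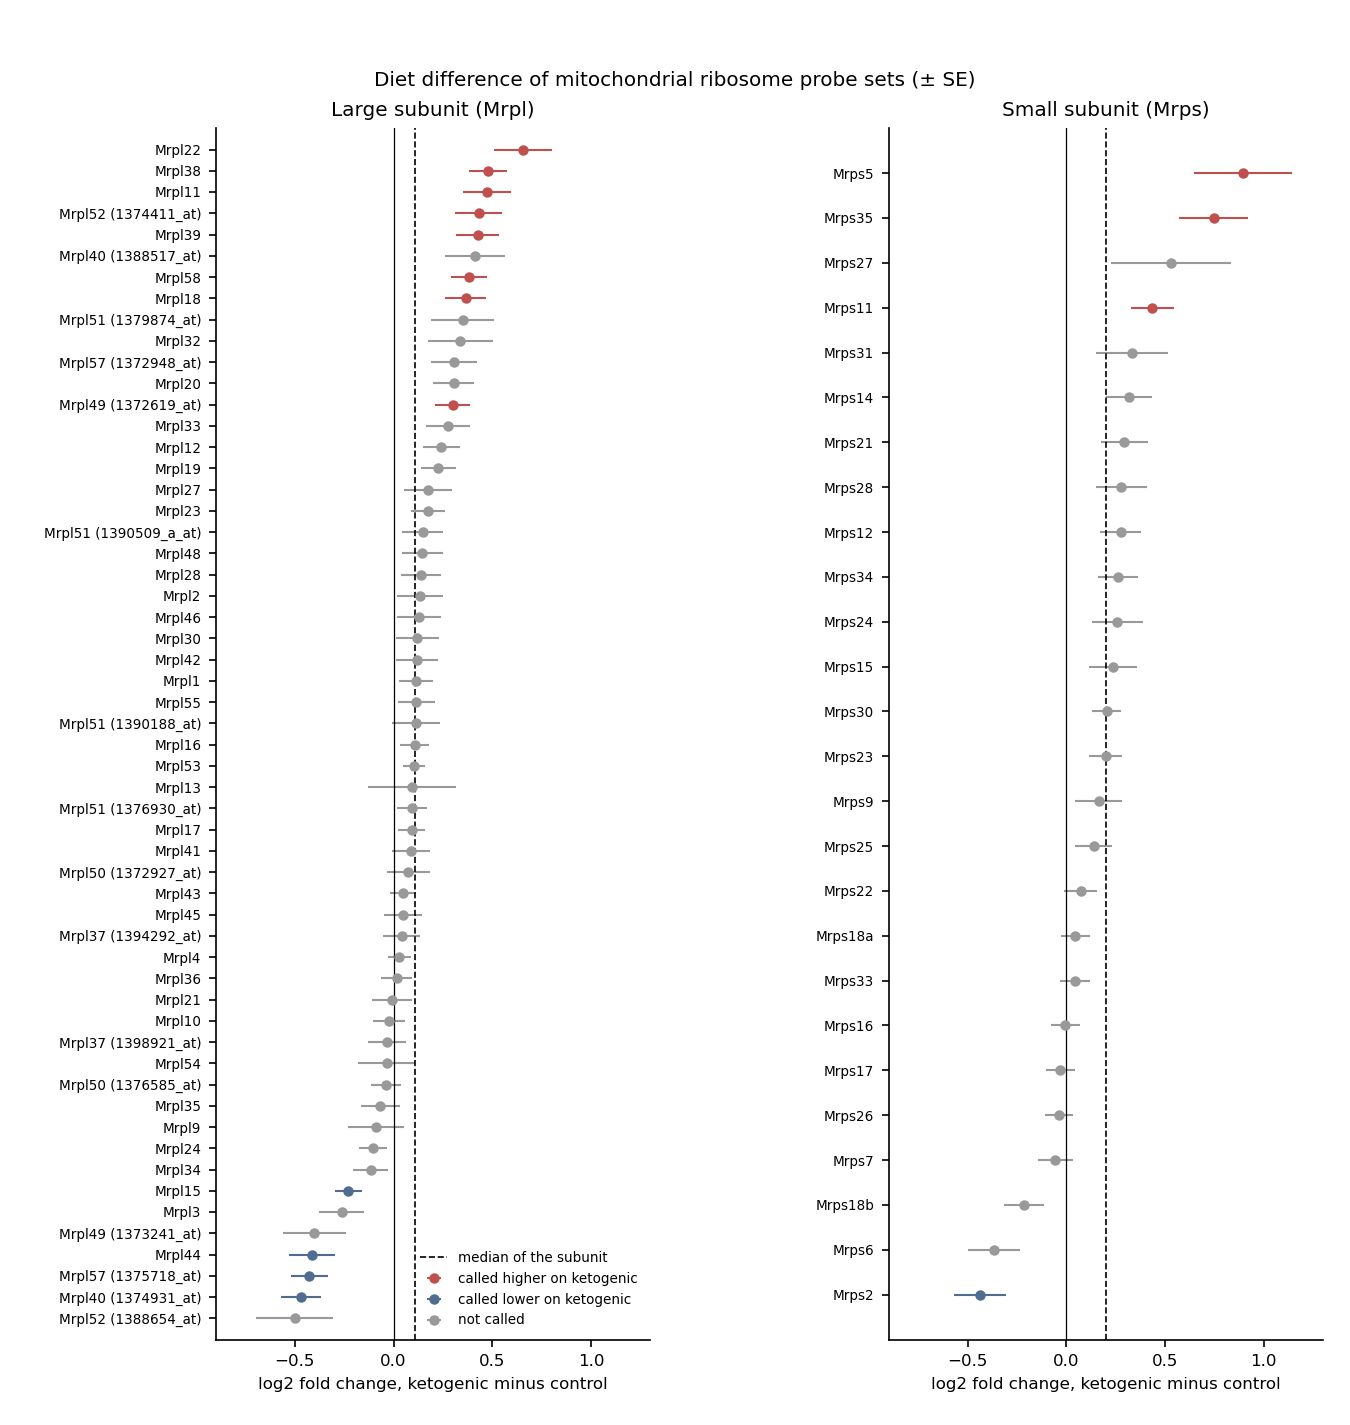
Log2 fold change (ketogenic minus control, ± SE) of each of the 82 tested probe sets, for the large subunit on the left and the small subunit on the right; red points were called higher and blue ones lower at an adjusted p under 0.05 and grey points were not called. The dashed line is the subunit's median, 0.11 for the large and 0.20 for the small subunit, and most points of both lie right of 0.

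In the large subunit, 8 of 56 tested members were called higher (14.3%) and 4 lower (7.14%), and 40 had a positive fold change. In the small subunit, 3 of 26 were called higher and 1 lower, and 19 had a positive fold change. The median log2 fold change was 0.11 in the large and 0.20 in the small subunit. Both medians stayed positive without normalisation between arrays (0.065 large, 0.11 small) and with centring on the 75th percentile (0.098 large, 0.14 small). The order of the 2 subunits turned when the dimmer 50% of all probe sets was left out (0.098 large, 0.072 small), with the 3 prime to 5 prime ratios in the model (0.094 large, 0.048 small) and with the hybridisation spike-ins in it (0.13 large, 0.12 small). The difference between the subunits was given no test. Over these and the remaining settings, the members called numbered up to 21 higher and 8 lower, both with array weights and with a threshold of 0.1. That is 35.4% of the members under either setting, against 26.4% and 25.8% of all tested probe sets.

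**Figure D2:**
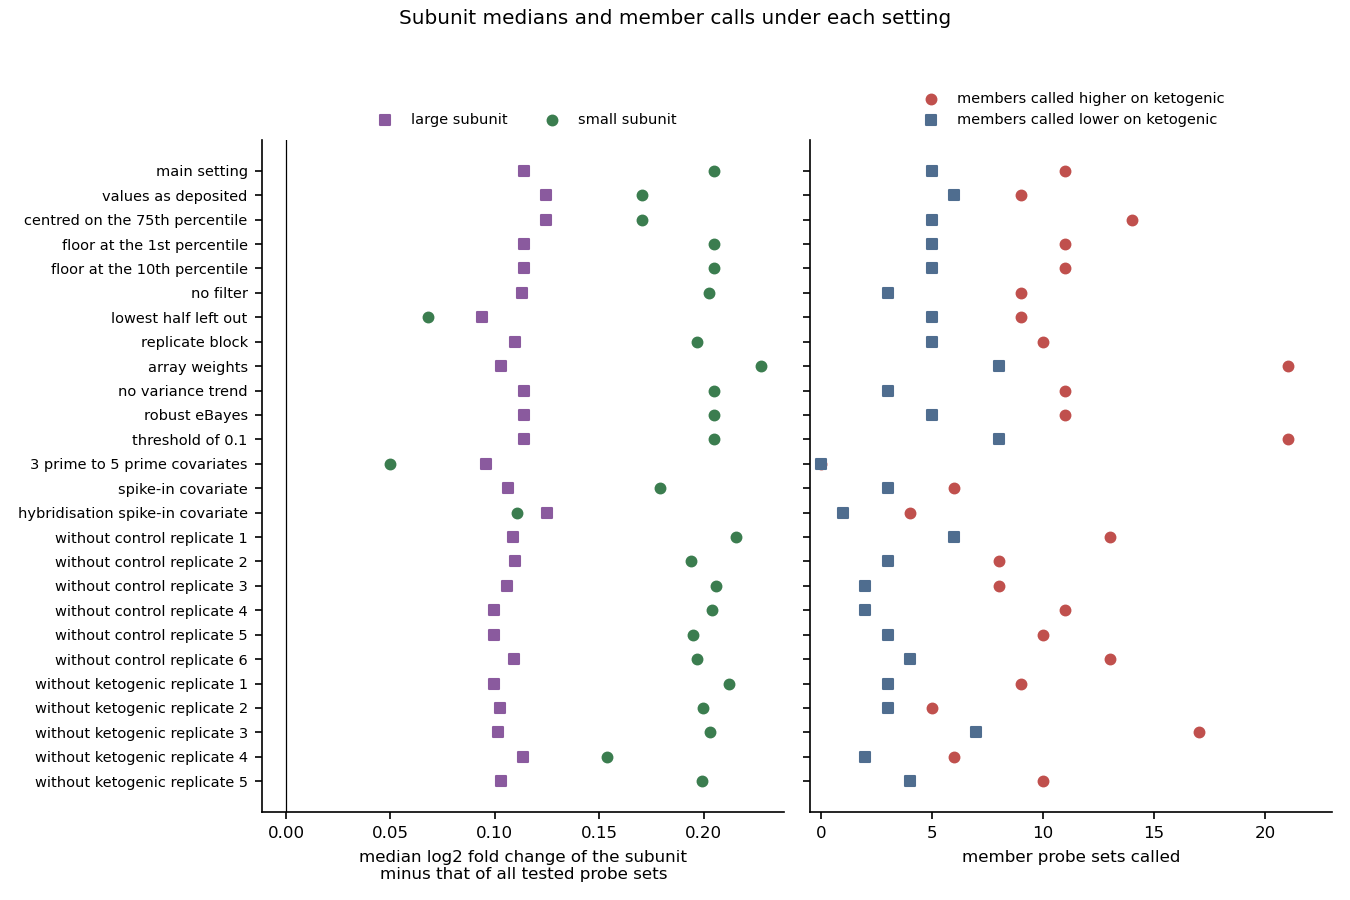
Left, median log2 fold change of the large (squares) and small (circles) subunit minus that of all tested probe sets under each setting; right, number of members called higher (circles) and lower (squares). Both medians stay right of 0 under every setting shown, their order turns under 3 settings, and the calls range from 0 to 21 higher and from 0 to 8 lower.

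The mean over large subunit members, set against the control mean, was 0.072, 0.14, 0.11, 0.10 and 0.042 on ketogenic replicates 1 to 5, and lay between -0.047 and 0.026 on the control arrays. Over small subunit members it was 0.16, 0.22, 0.10, 0.22 and 0.18 on the ketogenic arrays, and -0.051 to 0.049 on the control arrays. In both subunits every ketogenic array stood above every control array. The difference large minus small ran from -0.14 to 0.0059 on ketogenic arrays and from -0.049 to 0.058 on control arrays, and these ranges overlapped through ketogenic replicate 3 alone. Without it the ketogenic arrays ran from -0.14 to -0.074, below every control array. The cytosolic ribosome, made of Rpl and Rps proteins, gave a mean of 0.075 to 0.14 on ketogenic arrays and -0.048 to 0.051 on control arrays. It was taken here by gene symbol, and so included like-named genes such as Rpl7l1 (tested probe sets at -0.14 and 0.23, not called). At the same threshold 13 of its 44 tested probe sets were higher (29.5%, against 8.62% of all tested probe sets) and 1 was lower (2.27%, against 7.87%). The median log2 fold change of 0.12 equalled that of the mitochondrial members at 2 decimals. All tested probe sets together averaged -0.0088 to -0.0017 on ketogenic arrays and -0.0028 to 0.0027 on control arrays. In bulk tissue, fewer cells of a type and less RNA per cell cannot be told apart. Among cell markers, 4 of 5 red cell probe sets were called lower (mean log2 signal 5.76 to 6.20 on ketogenic arrays, 7.13 to 7.39 on control arrays), as were 3 of 8 for choroid plexus (5.99 to 6.37, against 6.32 to 6.86), 3 of 10 for astrocytes (8.19 to 8.46, against 8.40 to 8.65), 2 of 6 for microglia (6.60 to 6.90, against 6.74 to 6.99) and 2 of 9 for oligodendrocytes (9.65 to 10.05, against 9.74 to 10.17). Of 12 neuronal probe sets 1 was called higher and 2 lower (9.33 to 9.42 on ketogenic arrays, 9.21 to 9.43 on control arrays), so the neuronal markers of this brain tissue were detected on both diets. The part of these cell types in the members' values was not tested.

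**Figure D3:**
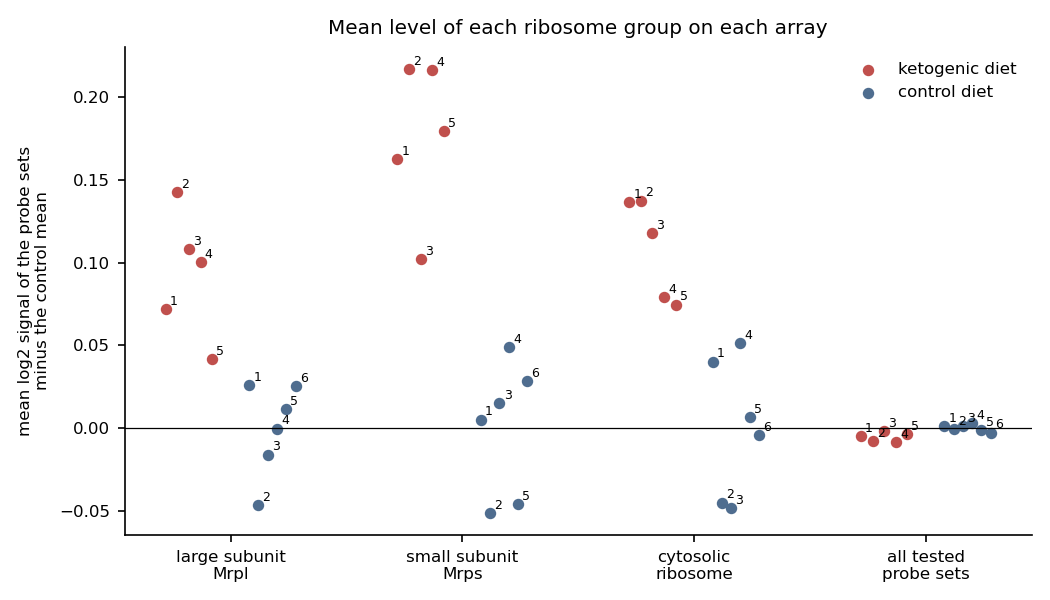
Mean log2 signal of the large subunit, the small subunit, the cytosolic ribosome and all tested probe sets on each array, minus the control mean; red points are ketogenic and blue points control arrays, with replicate numbers. Ketogenic arrays lie between 0.042 and 0.14 for the large and between 0.10 and 0.22 for the small subunit, above the control arrays, which stay between -0.051 and 0.049.

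Promoter windows are shown for 4 called members that differ in the motifs they hold. RefSeq windows of GRCr8, from 250 bases before to 50 bases after the gene start, were found for 60 of the 74 genes. They were searched on both strands for short core motifs of 3 factors known in mammals to act at genes of mitochondrial proteins: GCGCNNGCGC for NRF-1, CCGGAAG for ETS factors such as GABP, and ATGGCGG for YY1. Capitals mark matches, each window reads 5′ to 3′ on the gene's strand, and all 4 genes are on the plus strand. They are Mrpl22 (chr10:42845660-42845959), Mrpl58 (chr10:101145092-101145391), Mrpl44 (chr9:88554800-88555099) and Mrps5 (chr3:135274083-135274382).
Mrpl22: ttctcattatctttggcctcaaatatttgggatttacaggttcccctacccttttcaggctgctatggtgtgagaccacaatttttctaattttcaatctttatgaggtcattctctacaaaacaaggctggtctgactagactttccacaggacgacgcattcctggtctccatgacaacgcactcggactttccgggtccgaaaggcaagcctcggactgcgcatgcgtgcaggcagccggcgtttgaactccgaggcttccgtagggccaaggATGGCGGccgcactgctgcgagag
Mrpl58: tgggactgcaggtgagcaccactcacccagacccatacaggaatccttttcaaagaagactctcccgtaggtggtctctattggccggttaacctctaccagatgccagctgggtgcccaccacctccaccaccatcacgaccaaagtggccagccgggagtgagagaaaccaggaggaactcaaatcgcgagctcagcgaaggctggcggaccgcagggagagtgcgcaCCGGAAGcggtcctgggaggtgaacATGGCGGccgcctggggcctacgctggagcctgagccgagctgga
Mrpl44: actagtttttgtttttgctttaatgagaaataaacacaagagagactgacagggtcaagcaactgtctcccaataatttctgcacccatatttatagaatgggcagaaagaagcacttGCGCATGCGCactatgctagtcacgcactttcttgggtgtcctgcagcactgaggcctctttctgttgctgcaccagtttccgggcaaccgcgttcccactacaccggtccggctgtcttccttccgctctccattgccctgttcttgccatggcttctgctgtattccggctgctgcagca
Mrps5: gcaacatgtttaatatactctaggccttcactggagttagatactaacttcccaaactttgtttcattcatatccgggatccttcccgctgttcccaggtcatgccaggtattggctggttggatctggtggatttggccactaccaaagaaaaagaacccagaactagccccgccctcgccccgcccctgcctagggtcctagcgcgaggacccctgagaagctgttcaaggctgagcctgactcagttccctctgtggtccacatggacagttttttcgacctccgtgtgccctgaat
The YY1 core stood 26 bases after the start in Mrpl22 and 5 bases after it in Mrpl58, which also had an ETS core 20 bases before the start. Mrpl44 had an NRF-1 core 132 bases before the start, and in Mrps5 none of the 3 runs of letters occurred in the window.

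Among the 60 windows, 36 (60.0%) held at least 1 of the motifs, against 16.7% of all 33469 windows in the table and 20.9% of the 21851 windows of protein-coding genes. Windows of cytosolic ribosome genes held one in 20 of 39 (51.3%). The ETS core was in 19 members (31.7%, against 8.75% of all and 10.7% of protein-coding windows), the YY1 core in 14 (23.3%, against 4.80% and 6.0%) and the NRF-1 core in 13 (21.7%, against 5.58% and 7.46%). In the cytosolic ribosome these shares were 23.1% for ETS, 28.2% for YY1 and 7.69% for NRF-1. Any of the motifs was in 27 of 40 large subunit windows and in 9 of 20 small subunit windows. None of the 3 motifs contains another. Every YY1 match in the members lay 3 to 41 bases after the gene start and read ATGGCGG on the gene's strand. These letters begin with ATG, and whether they mark the start of translation was not tested. The median GC content was 55.7% in the members, 51.7% in all windows and 55.0% in protein-coding ones. Members with a probe set called higher held a motif in 3 of 9 windows, members called lower in 2 of 4, and members not called in 30 of 46; the window of Mrpl14, which was not tested, held an NRF-1 core. A match describes letters in a window, and these counts carry no statement about binding.

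Mrps5 had the largest fold change among the 82 tested members. It is a counterpart of bacterial uS5 and lines the entry of the messenger RNA channel. Its log2 signal was 6.30, 6.54, 6.13, 6.73 and 6.85 on ketogenic replicates 1 to 5, and from 4.58 to 6.42 with a median of 5.59 on the control diet. The groups overlapped, because control replicate 3 at 6.42 lay above ketogenic replicates 1 and 3, and control replicate 2 lay far below the others at 4.58. The difference was 0.90 ± 0.25 (SE; 1.86-fold; n = 5 and 6; limma, adjusted p = 0.028), and the call was lost without ketogenic replicate 2, 4 or 5 (adjusted p up to 0.075).

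Mrps35, a mitochondrion-specific protein of the head of the small subunit, had log2 signals of 6.44, 6.87, 6.36, 7.08 and 7.09 on the ketogenic diet, and from 5.57 to 6.46 with a median of 5.96 on the control diet. Ketogenic replicates 1 and 3 lay below the highest control array and the other 3 lay above all controls. It rose by 0.75 ± 0.18 (SE; 1.68-fold; limma, adjusted p = 0.015). Mrps11, the counterpart of bacterial uS11 on the platform of the small subunit, had 7.36, 7.24, 6.96, 7.29 and 7.52 on the ketogenic diet, and from 6.65 to 7.12 with a median of 6.82 on the control diet. Here ketogenic replicate 3 alone lay within the control range, and the rise was 0.43 ± 0.11 (1.35-fold; limma, adjusted p = 0.018). Both calls held in all 11 fits with 1 array left out.

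Mrps2, the counterpart of bacterial uS2 and in humans a gene of inherited mitochondrial disease, was the small subunit's 1 lower call. Its log2 signal was 7.83, 7.69, 8.12, 7.74 and 8.03 on the ketogenic diet, and from 7.77 (replicate 6) to 8.67 with a median of 8.39 on the control diet. Only control replicate 6 was as low as the ketogenic arrays. It fell by 0.44 on the log2 scale (SE 0.13; 1.35-fold lower; limma, adjusted p = 0.036), a call that was lost in 7 of 11 fits with 1 array left out, namely without control replicate 2, 3, 4 or 5 or ketogenic replicate 1, 2 or 4 (adjusted p up to 0.095). With the 3 prime to 5 prime ratios in the model, where they and diet can hardly be told apart, its sign turned, to 0.085.

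The remaining small subunit members that were singled out were not called. Mrps27 differed by 0.53 ± 0.31 and Mrps31, a protein of the subunit's head, by 0.33 ± 0.18. Mrps6, the counterpart of bacterial bS6, had a difference of -0.37 ± 0.13, with a mean log2 signal of 7.43 ± 0.35 on the ketogenic diet and 7.80 ± 0.13 on the control diet (SD, n = 5 and 6; limma, adjusted p = 0.071). Mrps12, which sits at the decoding centre, differed by 0.27 ± 0.11 (limma, adjusted p = 0.087). Mrps18b, 1 of 3 mammalian proteins related to bacterial bS18, differed by -0.22 ± 0.10. Its relative Mrps18a and Mrps30, both named for the small subunit but located in the large subunit in mammalian structures, differed by 0.05 ± 0.07 and 0.20 ± 0.08 (limma, adjusted p = 0.70 and 0.079). Mrps17, Mrps26 and Mrps33, the brightest of the small subunit, differed by -0.03, -0.04 and 0.04. The other 12 small subunit probe sets lay between -0.056 (Mrps7) and 0.32 (Mrps14), and 10 of them were positive.

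In the large subunit, proteins at the polypeptide exit tunnel, where new chains meet the inner membrane, included the calls for Mrpl22, Mrpl39 and Mrpl44. Of 8 tested members of this group 2 were called higher and 1 lower, with a median of 0.13. Mrpl22, which lines the tunnel, had log2 signals of 7.49, 7.52, 7.15, 7.10 and 6.92 on the ketogenic diet, and from 6.15 to 6.98 with a median of 6.66 on the control diet. The groups met only where ketogenic replicate 5 lay below control replicate 5. It rose by 0.66 ± 0.15 (SE; 1.58-fold; limma, adjusted p = 0.013).

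Mrpl39, a mitochondrion-specific protein near the tunnel, had 7.03, 6.94, 6.45, 6.69 and 6.89 on the ketogenic diet, and from 6.25 to 6.48 with a median of 6.38 on the control diet. Ketogenic replicate 3 alone lay within the control range, and the rise was 0.43 ± 0.11 (1.34-fold; limma, adjusted p = 0.020), lost without ketogenic replicate 1 or 2 (adjusted p up to 0.057). Mrpl44, a protein with a ribonuclease-like fold whose human gene is mutated in infantile cardiomyopathy, had 6.31, 6.14, 6.75, 6.45 and 6.59 on the ketogenic diet, and from 6.65 to 7.05 with a median of 6.89 on the control diet. Again ketogenic replicate 3 was the one array within the control range. Mrpl44 fell by 0.41 on the log2 scale (SE 0.12; 1.33-fold lower; limma, adjusted p = 0.030), a call lost without control replicate 3 or 4 or ketogenic replicate 1, 2 or 4 (adjusted p up to 0.079). The other 5 tunnel members were not called. They were Mrpl17 at 0.09, Mrpl23 at 0.17, Mrpl24 at -0.10, Mrpl32 at 0.34 and Mrpl45, which tethers the ribosome to the inner membrane, at 0.05.

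At the stalk, which recruits translation factors, 1 of 5 tested members was called. Mrpl11, the counterpart of bacterial uL11 at its base, had 7.99, 7.95, 7.30, 7.83 and 7.66 on the ketogenic diet, and from 7.07 to 7.51 with a median of 7.26 on the control diet. Ketogenic replicate 3 lay near the middle of the controls and the other 4 above them all. The rise was 0.47 ± 0.12 (1.39-fold; limma, adjusted p = 0.020), lost without ketogenic replicate 1, 2 or 4 (adjusted p up to 0.058). Mrpl12, the stalk protein that also binds the mitochondrial RNA polymerase, differed by 0.24 ± 0.09 (limma, adjusted p = 0.087). Mrpl53 differed by 0.10, and Mrpl10 and Mrpl54 by -0.02 and -0.03.

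Mrpl38 and Mrpl18 of the large subunit were both called higher. Mrpl38 had 6.37, 6.71, 6.42, 6.63 and 6.48 on the ketogenic diet, and from 5.94 to 6.09 with a median of 6.05 on the control diet. All 5 ketogenic arrays lay above all 6 control arrays, and the rise of 0.48 ± 0.10 (SE; 1.39-fold; limma, adjusted p = 0.0072) had the lowest adjusted p among the tested members. Mrpl18, a relative of the bacterial uL18 that binds 5S RNA, had 7.84, 7.92, 7.56, 8.14 and 7.71 on the ketogenic diet, and from 7.26 to 7.65 with a median of 7.48 on the control diet. Only ketogenic replicate 3 lay within the control range. The rise was 0.37 ± 0.10 (1.29-fold; limma, adjusted p = 0.030), lost without control replicate 2 or 3 or ketogenic replicate 1, 2 or 4 (adjusted p up to 0.085).

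Mrpl58, also known as Ict1, is a peptidyl-tRNA hydrolase that rescues stalled mitochondrial ribosomes and is itself a part of the large subunit. Its log2 signal was 7.0, 6.86, 6.97, 7.12 and 7.04 on the ketogenic diet, and from 6.37 to 6.79 with a median of 6.64 on the control diet. The groups did not overlap, and the rise was 0.38 ± 0.09 (SE; 1.3-fold; limma, adjusted p = 0.015). Mrpl15, the counterpart of bacterial uL15 in the core of the subunit, had 8.11, 8.36, 8.41, 8.38 and 8.31 on the ketogenic diet, and from 8.43 to 8.63 with a median of 8.55 on the control diet. These groups did not overlap either, but the fall was small, by 0.23 on the log2 scale (SE 0.07; 1.17-fold lower; limma, adjusted p = 0.035). Its call was lost in 9 of 11 fits with 1 array left out, all but those without control replicate 1 or ketogenic replicate 3 (adjusted p up to 0.081).

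In all, 5 of 82 members (6.10%) did not overlap between the diets, against 6.99% of all tested probe sets. Mrpl38, Mrpl58 and 1 probe set of Mrpl52 stood above the controls (3 members, 3.66%, against 3.91% of all tested probe sets), and Mrpl15 and 1 probe set of Mrpl40 below them (2 members, 2.44%, against 3.08%). All 5 are in the large subunit, where they make up 8.93% of 56 tested probe sets, and the small subunit had 0 of 26. With so few probe sets the split between the subunits was given no test. Ketogenic replicate 3 was the ketogenic array nearest to the controls for 6 of the 11 higher and all 5 lower members, and without it 17 members were called higher and 7 lower. That is 29.6% of the members, against 26.6% of all tested probe sets in the same fit. In the fits with 1 array left out, 7 of the 16 calls held in all 11: those of Mrpl22, Mrpl38, Mrpl58, Mrps11, Mrps35 and the lower probe sets of Mrpl40 and Mrpl57.

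**Figure D4:**
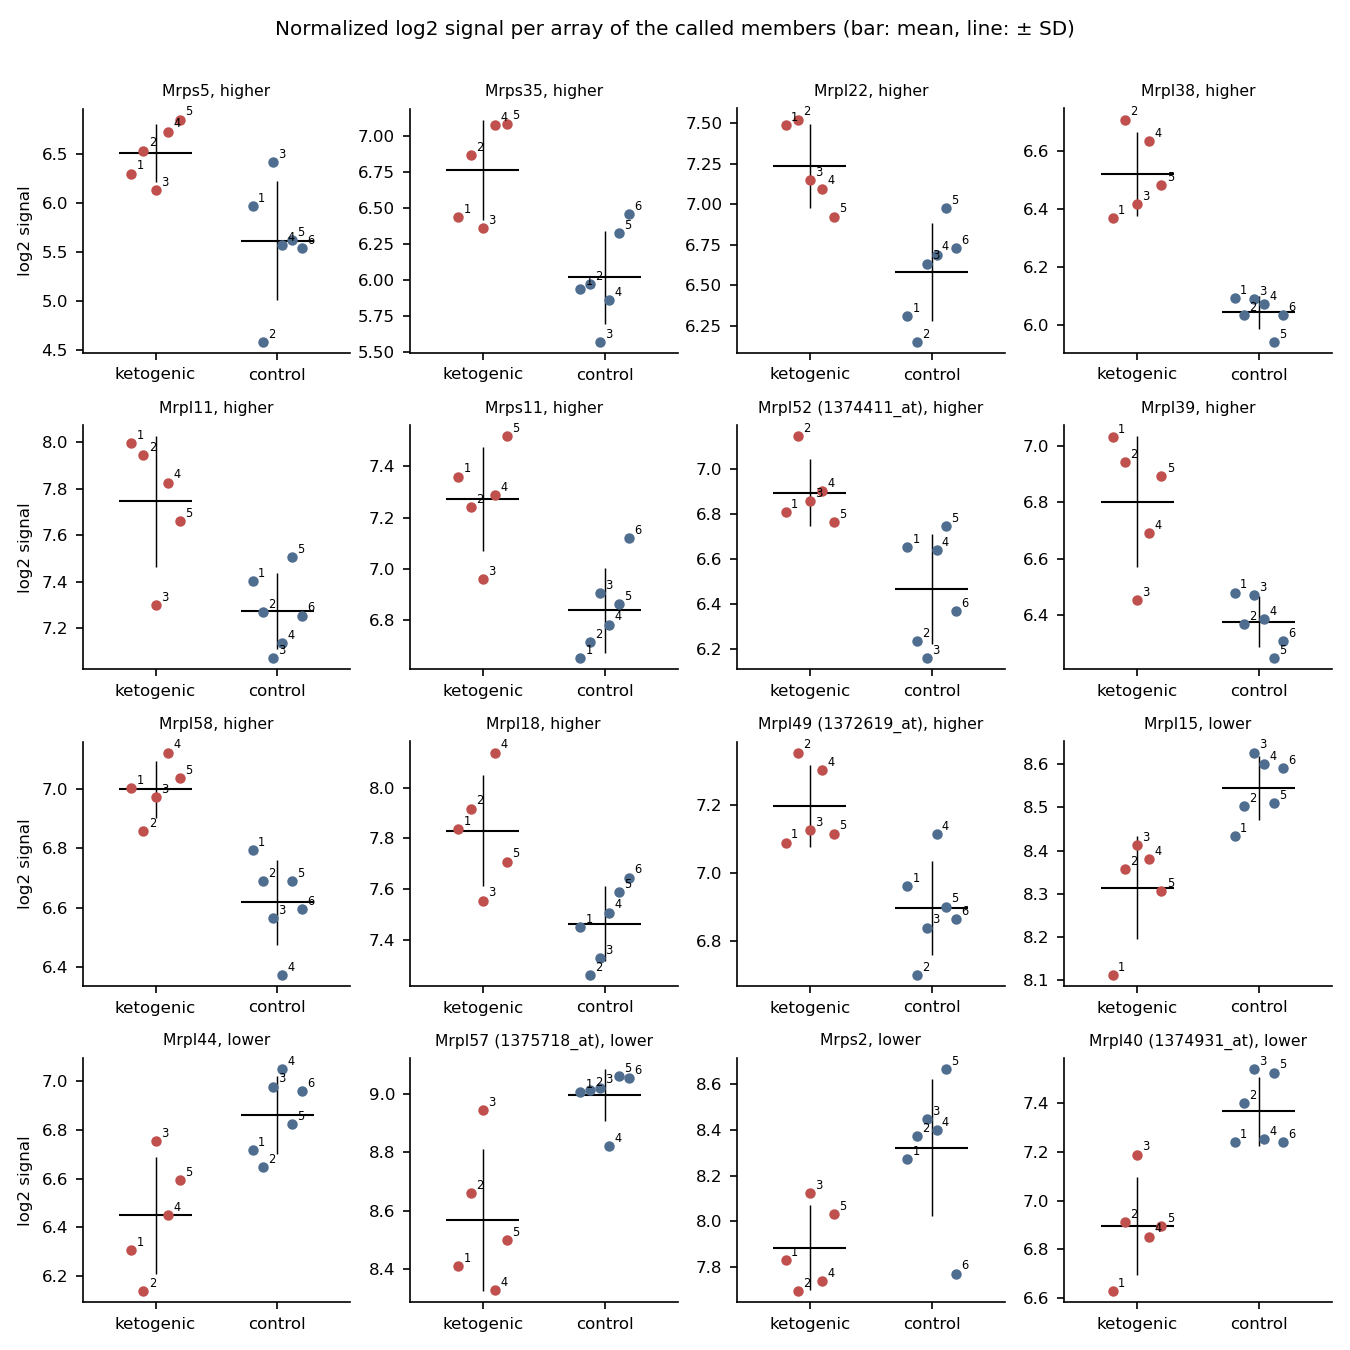
Normalised log2 signal on each array of the 16 called members, ordered by fold change; red points are ketogenic and blue points control arrays with their replicate numbers, and the bar and line give mean ± SD (n = 5 and 6). The diets do not overlap for Mrpl38, Mrpl58, Mrpl52 (1374411_at), Mrpl15 and Mrpl40 (1374931_at), and ketogenic replicate 3 lies nearest to the controls in 11 of the 16 panels.

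Several members had more than 1 probe set, and these often gave opposite signs. Of 7 genes with 2 or more tested probe sets, 6 had both signs, against 571 of all 1207 such genes on the array (47.3%). Each of the 4 genes with a call also had an uncalled probe set of the other sign, so their direction depended on the probe set.

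Mrpl40, a member whose human gene lies in the region deleted in DiGeorge syndrome, had a probe set (1374931_at) at 6.63, 6.91, 7.19, 6.85 and 6.90 on the ketogenic diet, and from 7.24 to 7.54 with a median of 7.33 on the control diet. The groups did not overlap, and the fall was by 0.47 on the log2 scale (SE 0.10; 1.39-fold lower; limma, adjusted p = 0.010). Its other probe set (1388517_at) had a difference of 0.41 ± 0.15 (limma, adjusted p = 0.077). Averaged over both, Mrpl40 differed by -0.03 and was not called.

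Mrpl57, a small protein of the large subunit, was measured by 1375718_at at 8.41, 8.66, 8.94, 8.33 and 8.50 on the ketogenic diet, and from 8.82 to 9.06 with a median of 9.02 on the control diet. The groups overlapped only through ketogenic replicate 3 and control replicate 4, and the fall was by 0.43 on the log2 scale (SE 0.10; 1.34-fold lower; limma, adjusted p = 0.012). Its second probe set (1372948_at) differed by 0.31 ± 0.12 (limma, adjusted p = 0.084), and the mean of both by -0.06. Mrpl52, specific to the mitochondrial large subunit, had a probe set (1374411_at) at 6.81, 7.15, 6.86, 6.90 and 6.77 on the ketogenic diet, and from 6.16 to 6.75 with a median of 6.5 on the control diet. These did not overlap, and the rise was 0.43 ± 0.12 (1.35-fold; limma, adjusted p = 0.030), lost without control replicate 2 or 3 or ketogenic replicate 2 or 4 (adjusted p up to 0.080). The other probe set of Mrpl52 (1388654_at) differed by -0.50 ± 0.20 (limma, adjusted p = 0.090), and the mean of both by -0.03.

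Mrpl49, another mitochondrion-specific member, had a probe set (1372619_at) at 7.09, 7.35, 7.13, 7.30 and 7.12 on the ketogenic diet, and from 6.70 to 7.11 with a median of 6.88 on the control diet. Control replicate 4 alone reached the ketogenic range. The rise was 0.30 ± 0.09 (1.23-fold; limma, adjusted p = 0.036), and it was lost without control replicate 2, 3, 5 or 6 or ketogenic replicate 2, 4 or 5 (adjusted p up to 0.095). Its other probe set (1373241_at) differed by -0.40 ± 0.16 (limma, adjusted p = 0.092), and the mean of both by -0.05. Mrpl37 and Mrpl50 had small differences of both signs, 0.04 and -0.03 for Mrpl37 and 0.08 and -0.04 for Mrpl50. Mrpl51 alone agreed in sign over all its probe sets, with 4 differences of 0.09 to 0.35, none of them called, and a mean over the 4 of 0.18 ± 0.08 (limma, adjusted p = 0.16). The files do not tell which part of the transcript each probe set reads, so the place of the probes in these opposite signs was not tested.

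**Figure D5:**
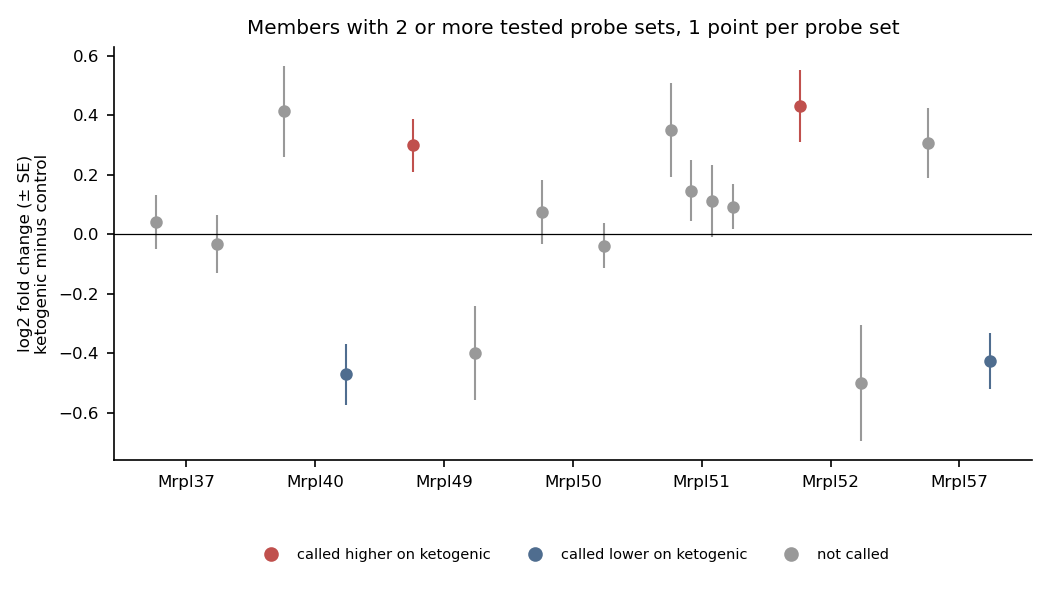
Log2 fold change (ketogenic minus control, ± SE) of every tested probe set of the 7 members with 2 or more, 1 point per probe set; red points were called higher, blue ones lower, and grey points were not called. The probe sets of Mrpl40, Mrpl49, Mrpl52 and Mrpl57 lie on both sides of 0, from -0.50 to 0.43, and the 4 of Mrpl51 all lie above it.

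The other large subunit members were not called. Among the brightest, Mrpl53 differed by 0.10 and Mrpl17 by 0.09. The 33 probe sets not named by the rule lay between -0.26 (Mrpl3) and 0.35 (Mrpl51), and 25 were positive. Members with a bacterial counterpart had 5 higher and 2 lower calls among 42 tested, and members particular to mitochondria 6 higher and 3 lower among 40, with a median of 0.12 in both groups.

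The rest of the mitochondrial translation pathway was followed in 5 lists of genes. Of 42 tested probe sets of ribosome proteins under other names, translation factors, assembly factors, mitochondrial aminoacyl-tRNA synthetases and genes of mitochondrial DNA expression, 3 were called higher (7.14%, against 8.62% of all tested probe sets) and 2 lower (4.76%, against 7.87%). Tars2, the mitochondrial threonyl-tRNA synthetase, rose in 1 probe set (1373760_at) by 1.21 ± 0.22 (mean log2 signal 5.85 on the ketogenic diet, 4.64 on the control diet; limma, adjusted p = 0.0050), while its other probe set differed by 0.25. Fars2, the phenylalanyl counterpart, rose by 0.87 ± 0.21 (5.84, against 4.97; limma, adjusted p = 0.015), and Rbfa, which helps to mature the small subunit, by 1.10 ± 0.35 (6.21, against 5.11; limma, adjusted p = 0.046). All 3 had control means under the filter level and were tested only because of their ketogenic values.

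Ybey, an RNA-processing factor of the small subunit, fell by 0.36 on the log2 scale (5.77, against 6.13, limma, adjusted p = 0.045). Mettl17, which assembles that subunit, fell in 1 probe set by 0.47 (5.95, against 6.42, limma, adjusted p = 0.039). Its other probe set (1376497_a_at) was dim and left out by the filter. There the ketogenic arrays lay higher, at 4.06 to 4.33, against 2.92 to 4.02 on the control arrays. None of the 5 subunits under other names was called, with Gadd45gip1 at 0.28, Ptcd3 at 0.23, Aurkaip1 at -0.06, Chchd1 at -0.16 and Dap3 at -0.28. None of 9 tested probe sets of translation factors was called, among them the elongation factor Tufm at -0.27. None of 9 for mitochondrial DNA expression was called. These 0 counts are from limma at the adjusted threshold, and unadjusted p values under 0.05 numbered 3 of 5, 1 of 9 and 3 of 9 in the 3 lists. Over all 11899 tested probe sets such unadjusted values numbered 3967.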

How the data were processed

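RNA of hippocampus was measured on 5 ketogenic and 6 control arrays, grouped by the diet in the sample titles. The deposited values were linear intensities per probe set. How the authors obtained them from the scans is not given in the sources used here. Each array's trimmed mean of deposited intensity (2% off either end) was 150.02 to 150.03. Intensities were quantile normalised between arrays, raised to a floor at the 5th percentile of all values (5.02) and put on a log2 scale. Control probe sets (57) and the dimmest 25% by mean were left out, which gave 11899 tested probe sets. Diets were compared with limma 3.58.1 in R 4.3.3 (lmFit, eBayes with a variance trend), with p-values adjusted by Benjamini-Hochberg over the 11899 and calls made under 0.05. Exact permutation tests, two-sided, were used for measures of the arrays. Precision is limited by how many arrays each diet had.

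Probe sets were named through the platform annotation (12789 with 1 symbol, 312 with several), which can be old, and different probe sets of a gene were kept apart. Named were all called members, the 3 uncalled members with the largest fold changes and the 3 brightest of each subunit, genes whose probe sets differed in sign or call, a few members by role (Mrps18a to c, Mrps30, Mrps36, Mrpl12, Mrps12, Mrpl58), and called genes of the other pathway lists; Mrps18c and Mrps36 had no member probe set, and members named beside their role group fall outside this rule. Members, lists and rules were chosen with earlier results of these data known. The alternatives were other scalings, floors, filters, variance models, thresholds and covariates, a replicate block, and leaving out each array; a covariate for hybridisation spike-ins was chosen after seeing the data. On simulated data the same fit was tested with 11899 probe sets. Of the planted changes, 64 of 100 of 0.5 and 95 of 100 of 1 (log2) were called, and 13 of 172 calls were false. The simulated noise was normal and independent between probe sets, without the differences between arrays seen in the real data. These rates therefore need not hold for the real data. Promoter windows came from RefSeq GRCr8 and were absent for 14 genes in the table used.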

Additional observations from a re-analysis of the deposited data

Results flagged for a closer look

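Of 88 groups of values examined, 2 held an array far from the others of its diet, where chance flags about 1 in 20 groups. For Mrpl57 (1375718_at), control replicate 4 stood low at 8.82 log2 signal, and the nearest other control array was at 9.01. For Mrps30, control replicate 6 stood high at 7.69, and the nearest other control array was at 7.51. Mrpl57 was called lower in all 11 fits with 1 array left out, and Mrps30 was not called. No value of ketogenic replicate 3 was flagged.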

How the results depend on the processing

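Members called higher numbered 11 and lower 5. With array weights, and also with a threshold of 0.1, they numbered 21 and 8 (26.4% and 25.8% of all tested probe sets called, against 16.5%). Lower calls numbered 3 without the filter, 3 without the variance trend and 3 over genes after averaging their probe sets. Over all tested probe sets, lower calls made up 3.95% without the filter and 6.44% without the variance trend, against 7.87% in the main fit. With both end ratios (3 prime to 5 prime) in the model 0 were higher and 0 lower (limma, as for all counts here; 5 at an unadjusted p under 0.05), with all spike-ins 6 and 3, and with the hybridisation spike-ins 4 and 1. Leaving out 1 array gave 5 to 17 higher and 2 to 7 lower; ketogenic replicate 2 gave 5 and 3, ketogenic replicate 3 gave 17 and 7, ketogenic replicate 4 gave 6 and 2, and lower calls numbered 2 without control replicate 3 or 4 and 3 without control replicate 2 or 5 or ketogenic replicate 1. The small subunit median of 0.20 was 0.11 as deposited, 0.14 with 75th percentile centring, 0.072 with the lowest 50% of probe sets left out, 0.048 with the 3 prime to 5 prime ratios, 0.12 with the hybridisation spike-ins, and 0.15 to 0.21 with 1 array left out. The large subunit median of 0.11 was 0.065 as deposited. Over all tested probe sets, 6.70% to 26.6% were called with 1 array left out, against 16.5% in the main fit. The cause of these shifts was not tested.

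Replicate numbers were shared by both diets, and same-numbered arrays deviated together at correlations of 0.0089 to 0.077. Of these 5 pairs, 2 correlated best with their own number. The labels do not say whether equal numbers mark pairs, and correlations this small cannot decide it. A fit with the replicate block gave 10 higher and 5 lower calls (18.3% of the members, against 15.3% of all tested probe sets). Its medians were 0.10 (large) and 0.19 (small).

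Signs that turned were near 0 in most cases. As deposited, Mrpl37 (1394292_at) was at -0.058, Mrpl50 (1372927_at) at -0.034 and Mrps26 at 0.0019. With 75th percentile centring, Mrpl37 was at -0.025 (1394292_at) and 0.011 (1398921_at), Mrpl50 (1372927_at) at -0.00098, Mrps17 at 0.025 and Mrps26 at 0.035. With the 3 prime to 5 prime ratios, Mrpl17 was at -0.18, Mrpl37 (1398921_at) at 0.036, Mrps2 at 0.085, Mrps17 at 0.047, Mrps18a at -0.15 and Mrps33 at -0.16. With all spike-ins Mrpl37 (1398921_at) was at 0.011, and with the hybridisation spike-ins Mrpl37 (1394292_at) was at -0.030, Mrps17 at 0.022 and Mrps27 at -0.065. With 1 array left out, the values of Mrpl37 ran from -0.0027 to 0.090 (1394292_at) and from -0.077 to 0.034 (1398921_at), those of Mrps17 from -0.063 to 0.00040 and those of Mrps33 from -0.015 to 0.092; the sign turned without ketogenic replicate 3 (Mrpl37, 1394292_at), without control replicate 4 or ketogenic replicate 2 (Mrpl37, 1398921_at, second value 0.0034), without ketogenic replicate 1 or 4 (Mrps17, second value 0.00011) and without ketogenic replicate 1 (Mrps33). Of the called members, Mrps2 alone turned.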
